A study of Mus musculus with 4 samples.

Results

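A set of 10 genes of sugar metabolism was followed in mouse testis RNA: Ldhc, Ldha, Pgk2, Pgk1, Gapdhs, Aldoart1, Aldoart2, Pdha2, Hk1 and Tktl2. They were chosen by gene symbol, as testis forms of glycolytic and related enzymes with some of their widely expressed relatives. The choice was made with earlier results of these data known. The genes are 10 of the 22808 gene identifiers in the table. Ribosomal RNA-depleted testis RNA was sequenced in 1 directional library of Piwil1-/- and 1 of Piwil1+/- mice, both at post-natal day 23. Piwil1-/- animals lack both working copies of Piwil1, and Piwil1+/- animals keep 1 copy and served as the control. The strain of these animals, the structure of the mutant allele and the number of animals per library are not stated by the labels. PIWIL1, also called MIWI, is a germline Argonaute protein that binds PIWI-interacting RNAs in late meiotic and haploid male germ cells.

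Germ cells of the testis change their sugar supply as they mature. Spermatocytes and round spermatids take up lactate that Sertoli cells release, whereas sperm break down glucose along the tail, where several glycolytic enzymes are anchored to the fibrous sheath. Many of these enzymes come in germ cell forms. Pgk2, Pdha2, Aldoart1, Aldoart2 and Tktl2 are retrogenes, copied from a parent messenger RNA with no introns in the coding part, while Ldhc and Gapdhs are intron-containing duplicates. Pgk1 and Pdha1 lie on the X chromosome, which is silenced during male meiosis, and their retrogene copies lie on autosomes.

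The library totals were inferred from the RPKM values, as described below, at 100254357 reads for Piwil1-/- and 104014686 for Piwil1+/-. Of the short genes used for this, 31 gave these totals and 16 the next best. RPKM divides a gene's reads by its length and by the mapped reads of the library, so genes can be compared within a library as far as the gene lengths used suit the transcripts made in testis. Piwil1 itself was listed at 0 in Piwil1-/- and was at 26.2 RPKM in Piwil1+/-, matching the labels. All 7 meiotic prophase markers were measured in both libraries, Sycp3 of the synaptonemal complex at 185 RPKM in Piwil1-/- and 163 RPKM in Piwil1+/-. Each genotype has 1 library, so the spread between animals is unknown and p-values cannot be computed. Counting intervals are 95% intervals from the smallest whole reads that fit the RPKM values and cover counting error only.

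The 10 genes spanned more than 2 orders of magnitude, and Ldhc stood far above the rest. Ldhc (ENSMUSG00000030851.14, chromosome 7, 46861263 to 46878147, mm10) encodes the lactate dehydrogenase of spermatocytes, spermatids and sperm, which interconverts pyruvate and lactate. It was at 1479 RPKM in Piwil1-/- and 1638 RPKM in Piwil1+/-, and ranked 2 and 1 among all genes of the 2 libraries. It was followed by its neighbour Ldha, the muscle-type lactate dehydrogenase, which lies 5635 bp away on the same chromosome, at 311 RPKM in Piwil1-/- and 301 RPKM in Piwil1+/-.

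Hk1, the hexokinase that traps glucose in the cell as glucose 6-phosphate, was at 93.4 RPKM in Piwil1-/- and 156 RPKM in Piwil1+/-. The gene makes both a general and a germ cell transcript, which values per gene cannot tell apart. Pgk2, the phosphoglycerate kinase of meiotic and haploid germ cells, was at 92.9 RPKM in Piwil1-/- and 114 RPKM in Piwil1+/-. Pdha2, the germ cell E1 alpha subunit of pyruvate dehydrogenase, was at 43.9 RPKM in Piwil1-/- and 49.0 RPKM in Piwil1+/-. These 3 genes and the lactate dehydrogenases made up the upper end of the set in Piwil1+/-, and Tktl2 lay above Pdha2 in Piwil1-/-.

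Tktl2, a testis gene of the transketolase family, whose founding enzyme works in the non-oxidative pentose phosphate pathway, was at 56.1 RPKM in Piwil1-/- and 26.8 RPKM in Piwil1+/-. Gapdhs, the sperm form of glyceraldehyde-3-phosphate dehydrogenase bound to the fibrous sheath, was at 6.85 RPKM in Piwil1-/- and 17.9 RPKM in Piwil1+/-. The lower end also held the aldolase retrogenes and Pgk1, the general phosphoglycerate kinase. Aldoart2 was at 6.13 RPKM in Piwil1-/- and 12.7 RPKM in Piwil1+/-. Aldoart1 was at 5.07 RPKM in Piwil1-/- and 7.87 RPKM in Piwil1+/-. Pgk1 was at 6.25 RPKM in Piwil1-/- and 6.08 RPKM in Piwil1+/-. In Piwil1-/- the counting intervals of neighbours in this order overlapped for Hk1 and Pgk2, for Gapdhs and Pgk1, and for Pgk1 and Aldoart2. In Piwil1+/- no neighbours overlapped.

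**Figure D1:**
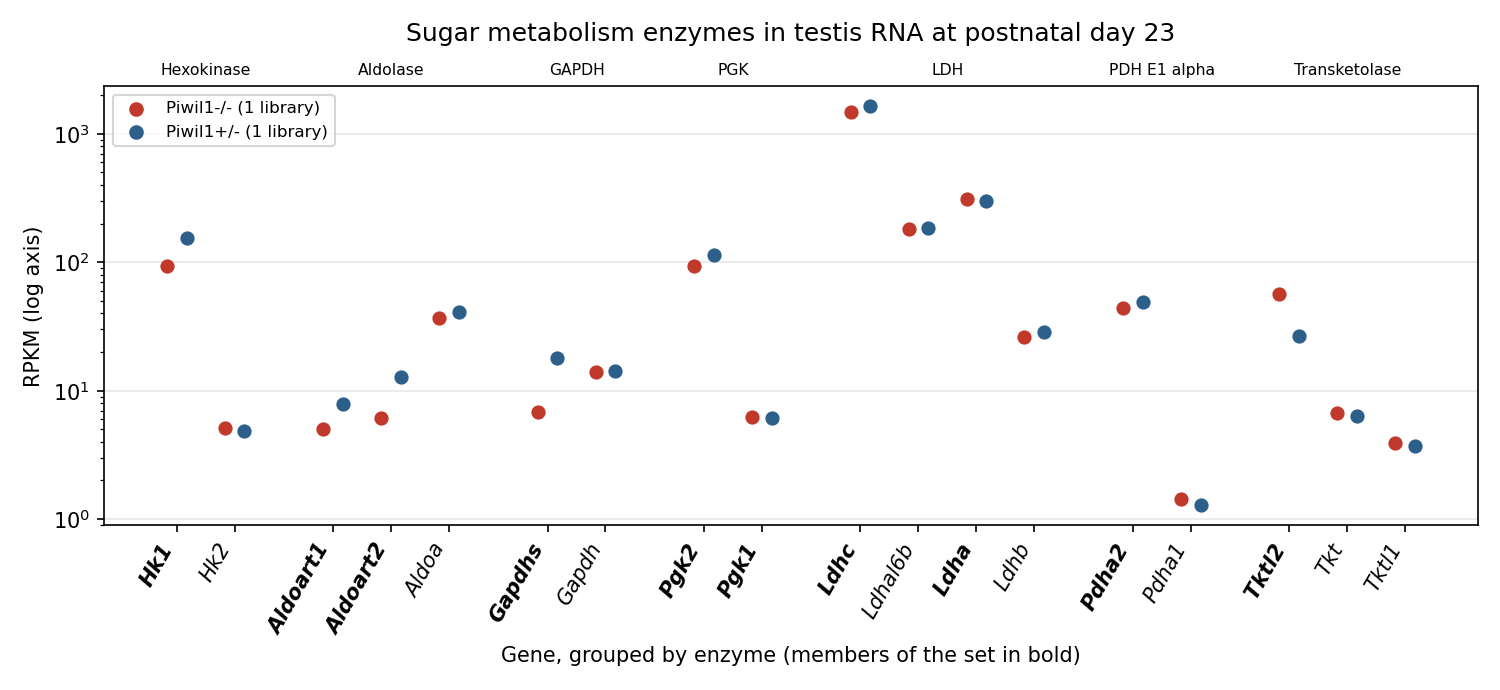
RPKM (log axis) of the 10 genes, in bold, and of related genes of the same enzyme families, with 1 point per library, Piwil1-/- left of Piwil1+/-. Ldhc is the highest in both libraries, at 1479 RPKM in Piwil1-/- and 1638 RPKM in Piwil1+/-, and the largest gaps between the points of a gene are those of Gapdhs, Aldoart2 and Tktl2 among the genes drawn.

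At the farthest upstream starts in the promoter set used, testis forms held fewer CpG dinucleotides than their relatives in several pairs. These were Pgk2 and Pgk1, Pdha2 and Pdha1, Ldhc and Ldha, and Gapdhs and Gapdh. The number was equal for Tktl2 and Tkt, and the ranges of the 2 groups overlapped. The RefSeq spans of Ldha, Gapdhs, Gapdh, Aldoa and Hk1 reach further upstream than these starts, so farthest refers to the promoter set alone. The 150 bases before a start, taken from RefSeq promoters of GRCm38.p6 (mm10), were examined, since CpG is dense at the starts of most widely expressed genes. Of the testis forms, 6 had an entry (Aldoart1 had none), with 1 to 11 CpG and a median of 4.5. The 6 widely expressed relatives Ldha, Pgk1, Gapdh, Aldoa, Pdha1 and Tkt had 0 to 19 with a median of 8, and all 32817 windows of the table had a median of 4. The counts depend on the start where a gene has several. Aldoa had 0 CpG at the farthest start and 13 and 12 at its others, while Aldoart2 held 5. Ldhc had 8 at the farthest start and 1 at its other, and Ldha 19 and 7, so 8 for Ldhc against 7 for Ldha would turn the order of this pair. The retrogene and parent pairs Pgk2 and Pgk1, and Pdha2 and Pdha1, are printed with Tktl2, the retrogene with the most CpG, 5′ to 3′ with each CpG in capitals:
Pgk2, chr17:40208610-40208759, minus strand: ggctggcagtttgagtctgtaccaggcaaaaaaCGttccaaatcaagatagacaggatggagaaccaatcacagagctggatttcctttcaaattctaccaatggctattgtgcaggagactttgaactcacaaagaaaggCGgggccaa
Pgk1, chrX:106186950-106187099, plus strand: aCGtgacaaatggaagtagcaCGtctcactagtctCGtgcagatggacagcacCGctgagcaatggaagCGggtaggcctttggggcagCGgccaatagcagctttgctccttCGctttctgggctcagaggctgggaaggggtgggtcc
Pdha2, chr3:141212356-141212505, minus strand: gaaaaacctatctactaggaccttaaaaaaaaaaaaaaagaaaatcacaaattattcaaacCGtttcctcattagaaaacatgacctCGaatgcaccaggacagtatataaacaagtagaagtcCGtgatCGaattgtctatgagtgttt
Pdha1, chrX:160138431-160138580, minus strand: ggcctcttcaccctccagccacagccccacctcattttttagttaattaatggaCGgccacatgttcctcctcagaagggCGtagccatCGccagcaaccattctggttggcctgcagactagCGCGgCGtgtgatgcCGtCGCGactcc
Tktl2, chr8:66511590-66511739, plus strand: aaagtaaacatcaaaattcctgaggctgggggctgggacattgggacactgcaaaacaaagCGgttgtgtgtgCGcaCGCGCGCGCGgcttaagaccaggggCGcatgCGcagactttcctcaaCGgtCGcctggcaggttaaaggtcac
Pgk2 held 2 CpG and Pgk1 held 7, Pdha2 held 4 and Pdha1 held 9, and Tktl2 held 11. Of the windows of these 6 testis forms, that of Pdha2 also held the TATA motif TATAAA, from base 44 to base 39 before its start, which 7.58% of all windows hold on either strand.

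The cyclic AMP response element TGACGTCA, its shorter form TGACG, which also matches inside the full element, and the variant TGACATCA were searched on both strands. The variant was added after the sequences had been seen. The windows of Gapdhs, Hk1, Ldhc and Ldha are shown because they hold matches, in capitals:
Gapdhs, chr7:30743682-30743831, minus strand: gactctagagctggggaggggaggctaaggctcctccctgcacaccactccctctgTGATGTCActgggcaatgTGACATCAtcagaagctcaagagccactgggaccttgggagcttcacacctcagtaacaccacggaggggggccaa
Hk1, chr10:62379909-62380058, minus strand: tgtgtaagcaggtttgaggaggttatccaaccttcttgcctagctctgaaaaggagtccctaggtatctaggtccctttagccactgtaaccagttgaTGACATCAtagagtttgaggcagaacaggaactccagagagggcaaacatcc
Ldhc, chr7:46861113-46861262, plus strand: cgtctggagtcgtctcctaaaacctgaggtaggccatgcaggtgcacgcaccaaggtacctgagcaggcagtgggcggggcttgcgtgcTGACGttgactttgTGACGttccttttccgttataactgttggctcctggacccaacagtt
Ldha, chr7:46845654-46845803, plus strand: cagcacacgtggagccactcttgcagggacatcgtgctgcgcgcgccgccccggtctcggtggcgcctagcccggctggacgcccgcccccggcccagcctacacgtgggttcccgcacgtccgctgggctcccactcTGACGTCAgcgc
Gapdhs held TGACATCA on both strands, from base 94 to base 87 and from base 76 to base 69 before its start, and its other start held 2 matches as well. Hk1 held it from base 52 to base 45 before its farther upstream start and not at its other start. This variant is present in 2.32% of all windows. Ldhc held 2 short forms, from base 61 to base 57 and from base 47 to base 43, and none at its other start; 13.3% of windows hold at least one. Ldha held the full element from base 12 to base 5, which 1.36% of windows hold, and a short form alone at its other start. These matches describe letters and were not tested as binding sites.

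Testis forms exceeded their widely expressed relatives for lactate dehydrogenase, phosphoglycerate kinase, pyruvate dehydrogenase and transketolase, and not for aldolase. Of 7 pairs, the testis form was higher in 4 in Piwil1-/- and in 5 in Piwil1+/-, the difference being Gapdhs. Near-identical copies, which include the retrogenes with their parents and processed pseudogenes of Gapdh, Ldha, Pgk1 and Aldoa, may share reads, so these ratios are uncertain.

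Pdha2 was 30.4 times the level of Pdha1, the X-linked E1 alpha subunit, in Piwil1-/- and 38.4 times in Piwil1+/-. Pdha1 itself was at 1.45 RPKM in Piwil1-/- and 1.28 RPKM in Piwil1+/-. Pgk2 was 14.9 times the level of Pgk1 in Piwil1-/- and 18.7 times in Piwil1+/-. These are the pairs whose widely expressed form is X-linked. Ldhc was 4.75 times the level of Ldha in Piwil1-/- and 5.44 times in Piwil1+/-. Over all 5 lactate dehydrogenase genes, Ldhc held 74.0% of the summed RPKM in Piwil1-/- and 76.1% in Piwil1+/-. Ldhal6b, a further gene of the family, held 9.06% in Piwil1-/- and 8.55% in Piwil1+/-, and Ldhb, the heart-type subunit, held 1.31% in Piwil1-/- and 1.34% in Piwil1+/-.

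Tktl2 was 8.34 times the level of Tkt, the general transketolase, in Piwil1-/- and 4.23 times in Piwil1+/-. The aldolase retrogenes stayed below Aldoa, the general aldolase, which was at 37.0 RPKM in Piwil1-/- and 41.2 RPKM in Piwil1+/-. The ratio to Aldoa was 0.137 for Aldoart1 in Piwil1-/- and 0.191 in Piwil1+/-, and 0.166 for Aldoart2 in Piwil1-/- and 0.309 in Piwil1+/-. The smallest gene length that fits the Aldoa values was 6937 bp, above its RefSeq span of 5761 bp. For Aldoart2 it was 1095 bp. The annotation used may give Aldoa a longer span, or its recovered reads may be wrong, and which holds was not tested. Counting intervals that use Aldoa reads are therefore less certain. A length too long for the testis transcript would lower the level of Aldoa and raise these ratios, which was not tested. Gapdhs was 0.492 times the level of Gapdh in Piwil1-/- and 1.26 times in Piwil1+/-, so the order of this pair differed between the libraries. Hk1 held 94.5% of the summed RPKM of 5 hexokinase genes in Piwil1-/- and 96.6% in Piwil1+/-, and Hk2 was next with 5.21% in Piwil1-/- and 3.02% in Piwil1+/-.

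**Figure D2:**
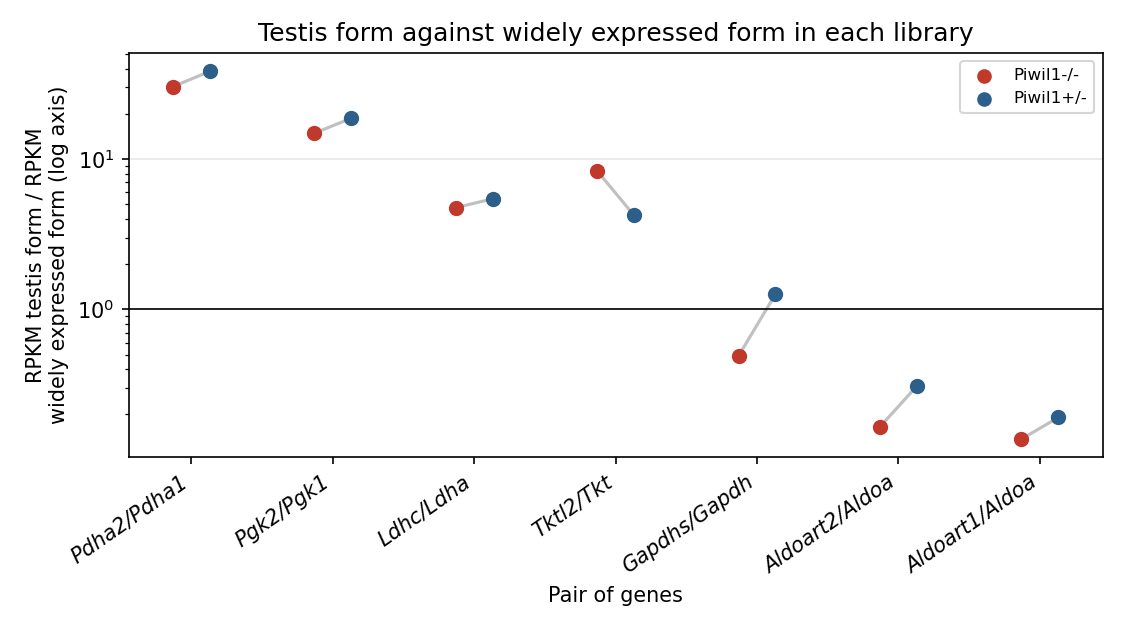
RPKM of the testis form divided by RPKM of the widely expressed form (log axis) for 7 pairs, Piwil1-/- left of Piwil1+/-, with a line joining the 2 libraries. The Tktl2/Tkt ratio is higher in Piwil1-/- (8.34 against 4.23), the other 6 ratios are lower, and Gapdhs/Gapdh is the pair that crosses 1.

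Between genotypes, the testis forms differed from each other in size and direction of change, while the widely expressed forms spanned a narrower range. On the log2 (RPKM + 1) scale, Piwil1-/- minus Piwil1+/-, the 7 testis forms ranged from -1.27 to 1.04 with 6 below 0, as were 48.8% of all genes tested, and 1 above 0, as were 51.2%. Their 6 widely expressed relatives ranged from -0.15 to 0.10 with 2 below 0. The lowest of these, Aldoa at -0.15, lay beside the testis forms Ldhc at -0.15 and Pdha2 at -0.16. The median of the 10 genes was -0.22, against 0.0055 for the 9951 genes with 1 RPKM or more in either library. All 10 passed that limit. Of the 10, 1 gene was at least 2-fold lower in Piwil1-/-, as were 1.96% of all genes tested, and 1 was at least 2-fold higher, as were 0.231%. In bulk tissue, fewer cells of a type and less RNA per cell cannot be told apart.

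Gapdhs was the lowest, at 6.85 RPKM in Piwil1-/- and 17.9 RPKM in Piwil1+/-, a log2 difference of -1.27 and a fold of 0.383 with a counting interval of 0.326 to 0.448, resting on at least 217 reads in Piwil1-/- and 588 in Piwil1+/-. It ranked 114 from the lowest of the 9951 genes. Gapdh differed by -0.02 on the same scale. Gapdhs lies on chromosome 7 from 30729779 to 30744791, and its RefSeq span overlaps that of Sbsn, a gene of cornified epithelia, over 12118 bp. Sbsn was at 0.297 RPKM in Piwil1-/- and 0.321 RPKM in Piwil1+/-, far below Gapdhs in either library.

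The aldolase retrogenes and Hk1 followed. Aldoart2 (chromosome 12, 55565205 to 55566896) had a fold of 0.482 (counting interval 0.439 to 0.528), and its log2 difference of -0.95 fell just short of the 2-fold rule because of the 1 RPKM added before the logarithm. Aldoart1 (chromosome 4, 72850583 to 72852634) had a fold of 0.645 (0.599 to 0.693). Aldoa, the parent of both, had a fold of 0.897 (0.882 to 0.912), an interval that is less certain given its fitted length above. Hk1 (chromosome 10, 62268855 to 62379920) had a fold of 0.600 (0.588 to 0.612), a log2 difference of -0.73, and Hk2 had a fold of 1.06 (0.967 to 1.16). Hk1 overlaps Hk1os, a long noncoding RNA gene, over 23378 bp, and reads of the 2 genes cannot be told apart where strand was not used in counting.

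Pgk2, Pdha2 and Ldhc were lower by smaller amounts. Pgk2 (chromosome 17, 40207018 to 40208609) had a fold of 0.818 (0.798 to 0.838), Pdha2 (chromosome 3, 141210004 to 141212355) one of 0.895 (0.849 to 0.944), and Ldhc one of 0.903 (0.900 to 0.906), resting on at least 556970 reads in Piwil1-/- and 639965 in Piwil1+/-. Ldha had a fold of 1.03 (1.01 to 1.05), and that of Pgk1 was 1.03 (0.846 to 1.25), an interval that includes 1. The counting interval lay below 1 for 7 of the 10 genes and above 1 for 2. Over the 9895 genes tested that have such an interval, it lay below 1 in 26.8% and above 1 in 27.4%, whatever the size of the fold.

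Tktl2 (chromosome 8, 66511740 to 66519199) went the other way. Its fold was 2.10 with a counting interval of 2.03 to 2.17, resting on at least 10601 reads in Piwil1-/- and 5249 in Piwil1+/-, a log2 difference of 1.04, and it ranked 19 from the highest of the 9951 genes. Tkt had a fold of 1.06 (0.984 to 1.15) and Tktl1, the X-linked family member, one of 1.05 (0.953 to 1.16), and both intervals include 1. Of the family's summed RPKM, Tktl2 held 84.1% in Piwil1-/- and 72.8% in Piwil1+/-.

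**Figure D3:**
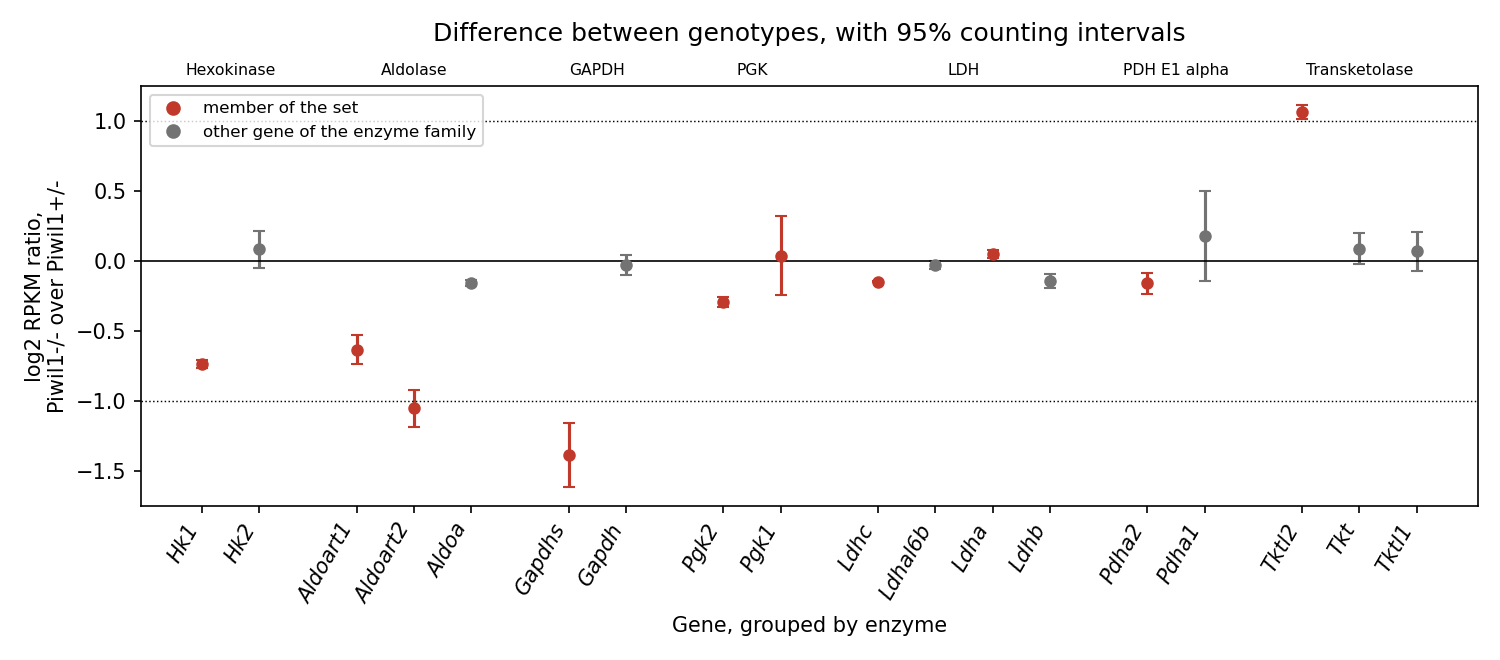
Log2 ratio of RPKM, Piwil1-/- over Piwil1+/- with nothing added, for the 10 genes (red) and related genes (grey), with bars for 95% counting intervals and dotted lines at 2-fold. Gapdhs, Aldoart2, Hk1 and Aldoart1 lie below the other genes drawn, Tktl2 lies above 1, and the grey points lie near 0.

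Setting each testis form against its own relative removes any scaling of a whole library. The ratio of testis to widely expressed form was higher in Piwil1-/- for Tktl2/Tkt and lower for the other 6 pairs. Intervals of single genes often left out 1, and no share over other pairs of genes was computed, so the intervals of these differences are given as counting error alone. On the log2 scale the difference was -1.36 for Gapdhs/Gapdh (interval -1.59 to -1.12), -0.90 for Aldoart2/Aldoa, -0.48 for Aldoart1/Aldoa and 0.98 for Tktl2/Tkt (0.86 to 1.10). The smaller differences were -0.34 for Pdha2/Pdha1 (-0.66 to -0.01), -0.33 for Pgk2/Pgk1 (-0.61 to -0.05) and -0.20 for Ldhc/Ldha (-0.22 to -0.17). Both aldolase pairs share Aldoa, so they are not independent.

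Many, not all, markers of haploid germ cells were lower in Piwil1-/-. Of 9 elongating spermatid markers, Odf1, Akap4 and Cabs1, proteins of the sperm tail, reached 1 RPKM in both libraries. All 3 were at least 2-fold lower in Piwil1-/-, as were 1.96% of all genes tested. Odf1 was at 8.69 RPKM in Piwil1-/- and 22.5 RPKM in Piwil1+/-, Akap4 at 25.8 RPKM in Piwil1-/- and 70.5 RPKM in Piwil1+/-, and Cabs1 at 4.05 RPKM in Piwil1-/- and 27.0 RPKM in Piwil1+/-. Prm2, Tnp2, Spem1 and Fscn3 reached 1 RPKM in Piwil1+/- alone, so the limit admitted them through the library in which they were higher, and their 2-fold calls are not counted as support. Prm1 and Tnp1 were below 1 RPKM in both. Of these markers, Prm1, Prm2 and Tnp1 were listed at 0 in Piwil1-/- and were at 0.0616, 1.42 and 0.458 RPKM in Piwil1+/-. A listed 0 does not show that a gene was silent, as given for Cox8a below. The summed level of the 9 was 40.1 RPKM in Piwil1-/- and 136 RPKM in Piwil1+/-. All 9 round spermatid markers were at 1 RPKM or more in both libraries. Of them, 7 were below 0 on the log2 scale, as were 48.8% of all genes tested. At least 2-fold lower were 3 of the 9, against 1.96% of all genes tested. The median of the 9 was -0.56, and their sum was 258 RPKM in Piwil1-/- and 319 RPKM in Piwil1+/-. Acr, Dpy19l2 and Spata16 of this list lay at -0.09, 0.03 and 0.05. The 5 markers of late pachytene and meiotic division include Piwil1, whose value is set by the genotype and was the one past 2-fold. The others ran from Nme5 at -0.31 through Ccna1 at -0.11 and Pou5f2 at -0.07 to Ybx2 at 0.43. The 7 meiotic prophase markers were all above 0, as were 51.2% of all genes tested. Their median was 0.13, and their sum was 843 RPKM in Piwil1-/- and 762 RPKM in Piwil1+/-. Sertoli cell markers summed to 181 RPKM in Piwil1-/- and 173 RPKM in Piwil1+/-, most of it Clu at 133 RPKM in each. Of 6 tested, 1 was below 0, Gata1 at -0.17, and 5 were above, up to Trf at 0.46. Leydig cell markers summed to 123 RPKM in Piwil1-/- and 149 RPKM in Piwil1+/-, most of it Cyp11a1 and Cyp17a1. Of 5 tested, 4 were below 0, and Star was above at 0.06. Over all genes tested, 48.8% were below 0 and 51.2% above. Of 5 epididymal markers, 3 were listed at 0 in both libraries, Rnase10 was at 1.01 RPKM in Piwil1-/- and 1.83 RPKM in Piwil1+/-, and Cst8, a cystatin also made in spermatids, was at 2.86 RPKM in Piwil1-/- and 12.9 RPKM in Piwil1+/-. The part of these cells in the differences of the sugar enzymes was not tested.

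Other genes of sugar metabolism were taken from lists of known pathway members that leave out the 10 genes. They were nearly all within 2-fold, as were 9733 of all 9951 genes tested, so this does not set them apart. Of 26 other glycolytic genes 18 were tested, none was past 2-fold and the median log2 difference was -0.04. The lowest was Gpi1, the glucose 6-phosphate isomerase, at 24.4 RPKM in Piwil1-/- and 36.3 RPKM in Piwil1+/- (log2 difference -0.55), and the highest was Eno3, a muscle enolase, at 0.26. All 10 other pentose phosphate genes were tested and none was past 2-fold. Their median was 0.06, from Pgd, the 6-phosphogluconate dehydrogenase, at -0.15 to Pgls, the lactonase, at 0.29. Of 14 genes of the pyruvate dehydrogenase complex and pyruvate entry 12 were tested, with a median of -0.03, from Pdk3, a kinase that inhibits the complex, at -0.28 to Mpc1, a subunit of the pyruvate carrier, at 0.15.

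Transporters brought in a further highly expressed gene. Slc2a3, the glucose transporter GLUT3, was at 967 RPKM in Piwil1-/- and 946 RPKM in Piwil1+/-, rank 6 in both libraries; it is named because of this rank, after its values were seen. Of 12 transport genes 8 were tested, none past 2-fold, with a median of 0.02. Slc16a7, the monocarboxylate transporter MCT2, was the lowest at 46.9 RPKM in Piwil1-/- and 71.7 RPKM in Piwil1+/- (log2 difference -0.60), and Slc2a8, the glucose transporter GLUT8, the highest at 3.79 RPKM in Piwil1-/- and 2.19 RPKM in Piwil1+/- (0.59).

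Of 9 genes of glycerol, fructose and sorbitol metabolism 6 were tested, with a median of -0.17. Of the 6, Gpd2, the mitochondrial glycerol 3-phosphate dehydrogenase, was at least 2-fold lower in Piwil1-/-, as were 1.96% of all genes tested. Gpd2 was at 13.7 RPKM in Piwil1-/- and 35.2 RPKM in Piwil1+/- (log2 difference -1.30, fold 0.390, interval 0.374 to 0.407). Gpd1, its cytosolic counterpart, was the highest of the 6 at 0.09. All 19 genes of the tricarboxylic acid cycle and malate shuttle were tested and none was past 2-fold. Their median was -0.03, from Fh1, fumarase, at -0.24 to Mdh1b, a malate dehydrogenase family gene, at 0.26.

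**Figure D4:**
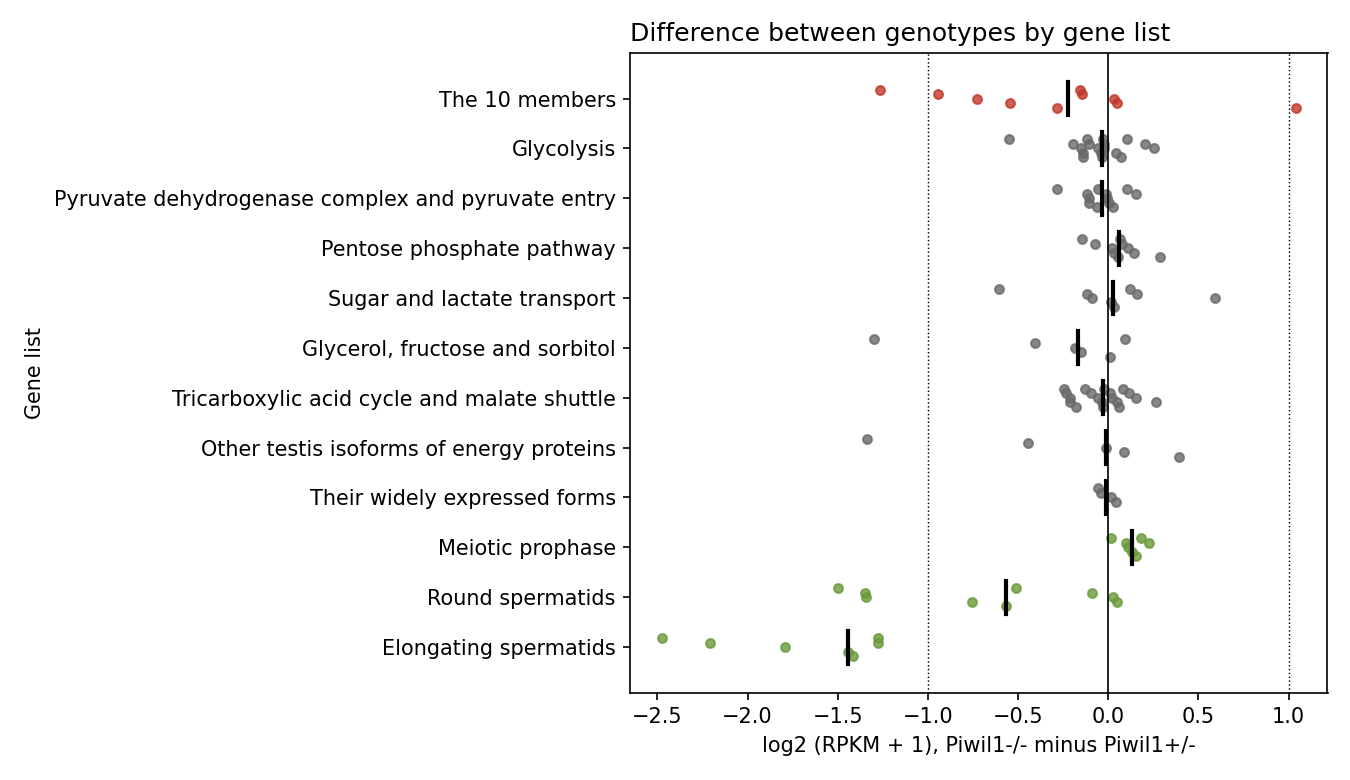
Difference of log2 (RPKM + 1), Piwil1-/- minus Piwil1+/-, with 1 point per gene with 1 RPKM or more in either library, for the 10 genes (red), other genes of sugar and energy metabolism (grey) and germ cell markers (green). Black bars are medians and dotted lines mark 2-fold. The 10 genes spread from -1.27 to 1.04, the medians of the grey lists lie between -0.17 and 0.06, and Odf1, Akap4 and Cabs1 among the elongating spermatid markers lie at -1.28 or below. The other 4 points of that list reached 1 RPKM in Piwil1+/- alone and enter its black bar, which is therefore not counted as support. Prm1 and Tnp1, below 1 RPKM in both libraries, are not drawn.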

How the data were processed

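Testis RNA of Piwil1-/- and Piwil1+/- mice was measured in 1 library each, grouped by the genotype in the labels. The authors deposited RPKM per Ensembl gene, per the file headers. Bowtie, STAR and mm10 are named in the submitters' processing notes; the read counter, annotation, gene lengths and any strand setting are not stated. Symbols from a table of gene names matched 22444 of 22808 identifiers, and coordinates are those of RefSeq GRCm38.p6.

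Differences of log2 (RPKM + 1) were taken as Piwil1-/- minus Piwil1+/- for genes at 1 RPKM or more in either library, and a 2-fold difference was counted. With 1 library per genotype no test was possible. Library totals and whole reads were recovered from the RPKM values, since both values of a gene share 1 gene length. The ratio of totals came from 497 genes with equal reads, and both totals from short genes, with RefSeq spans below 1500 bp taken as lengths, of which 31 gave these totals and 16 the next best. This fixed reads for 99.6% of the 16558 genes measured above 0 in each library; they are the smallest that fit, written as "at least". Intervals of folds are exact (Clopper-Pearson) and those of levels exact Poisson. Intervals of ratios between pairs use the normal approximation on the log scale. PCR copies make these intervals too narrow, and true reads above the smallest that fit make them too wide, by amounts that are unknown.

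The 10 genes and the lists were chosen with earlier results of these data known. Genes named are the 10, their family genes, and in each pathway list those past 2-fold with the highest and the lowest. Recovery of reads, fold intervals and 2-fold calls were tried on simulated data with counting error alone. These had no PCR copies, no spread between animals and no gene as long as the length fitted for Aldoa. They do not show how well the methods hold for these libraries. Python 3.11.15, pandas 2.3.3 and scipy 1.17.1 were used. The PIWIL1-bound small RNA libraries of the series were not used, because no transcript sequences were at hand to match them to these genes.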

Additional observations from a re-analysis of the deposited data

How the results depend on the processing

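With a pseudocount of 0.1 RPKM, 2 of the 10 genes were at least 2-fold lower, Aldoart2 having joined Gapdhs at -1.04 on the log2 scale, and over all genes 332 were lower and 68 higher, against 195 and 23. With a minimum of 5 RPKM, 126 of all genes were lower. Over all measured genes of a family, Ldhc held 74.0% in Piwil1-/- and 76.1% in Piwil1+/-, Aldoart1 10.4% in Piwil1-/- and 12.6% in Piwil1+/-, Aldoart2 12.6% in Piwil1-/- and 20.4% in Piwil1+/-, and Tktl2 84.1% in Piwil1-/- and 72.8% in Piwil1+/-. Summed over the testis and 1 widely expressed form alone, which are fewer genes, the shares in Piwil1-/- were 82.6%, 12.1%, 14.2% and 89.3% in the same order of genes, and those in Piwil1+/- were 84.5%, 16.0%, 23.6% and 80.9%. No sign of the 10 genes' log2 differences changed under another pseudocount or when centred on the median or on a mean trimmed by 30% at each end. This centring moved values by 0.0055 and 0.0050. The 14 recomputed differences between pairs stayed within their counting intervals, and the 32 recomputed list medians within 0.1 of the reported ones. No paired analysis was possible because each genotype has 1 library. Matching of small RNAs to transcripts was not run. Reads are lower bounds and do not rank the genes by depth; they were 211 in Piwil1-/- and 213 in Piwil1+/- for Pgk1, and 217 in Piwil1-/- and 588 in Piwil1+/- for Gapdhs. Gene lengths that do not suit the testis transcripts would shift levels and shares and leave folds between genotypes as they are.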

Other observations

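Testis forms of other energy proteins also differed among themselves. Of 7 such genes 5 were tested, with a median log2 difference of -0.01. Of the 5, Atp1a4, the sodium pump subunit of sperm, was at least 2-fold lower in Piwil1-/-, as were 1.96% of all genes tested. Atp1a4 was at 7.94 RPKM in Piwil1-/- and 21.6 RPKM in Piwil1+/- (log2 difference -1.34, fold 0.367, interval 0.350 to 0.384). Adcy10, the soluble adenylyl cyclase of sperm, was at 54.9 RPKM in Piwil1-/- and 75.0 RPKM in Piwil1+/- (-0.44). Cyct, the testis cytochrome c, was the highest of the 5, at 9.28 RPKM in Piwil1-/- and 6.83 RPKM in Piwil1+/- (0.39), and Cycs, the general form, was at 1.10 RPKM in Piwil1-/- and 1.18 RPKM in Piwil1+/-. Slc25a31, the germ cell ADP/ATP carrier, was at 25.4 RPKM in Piwil1-/- and 25.6 RPKM in Piwil1+/-. Cox8a, a subunit of cytochrome c oxidase needed in most cells, was listed at 0 in both libraries, so a value of 0 in this table does not show that a gene was silent.

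The glycerol kinase retrogenes were among the higher genes of sugar metabolism. Gk2 was at 203 RPKM in Piwil1-/- and 226 RPKM in Piwil1+/- (log2 difference -0.15), and Gykl1 at 89.5 RPKM in Piwil1-/- and 119 RPKM in Piwil1+/- (-0.41). Their X-linked relative, listed as Gk, was at 0.407 RPKM in Piwil1-/- and 0.398 RPKM in Piwil1+/-. These 3 genes, and above Adcy10, Slc25a31, Cycs and Cox8a, were chosen after their values had been seen.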
